A study of Mus musculus with 12 samples.

Results

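Control aggregates of HC11 cells, a mouse mammary epithelial line, were compared at 36 h and at 0 h of an in vitro migration assay, with 6 of the series' 12 libraries: the 3 labelled control 0 h (libraries 1, 2 and 3) and the 3 labelled control 36 h (libraries 1, 3 and 4). The members are every gene with at least 1 TPM in 3 or more of the 12 libraries, 14426 of 57180 in the deposited table, and the 6 libraries were fitted on their own. Both groups carry the label WT as genotype and, in their titles, a control construct written "scr", which the labels do not spell out. Per the labels, sorted cells were left overnight to aggregate in RPMI 1640 with serum, EGF and insulin before the assay, so both groups share that aggregation step and those added factors. The other 6 libraries carry a knockdown of Snail1 (the protein of Snai1), whose role in collective migration the series addresses. The labels name no separate culture for any library, so a p-value here speaks to the spread among these libraries alone, which may be technical. The time in the assay is also time in culture, and the 2 cannot be told apart here.

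Collective migration is the movement of cells that stay joined to one another, as in branching epithelia and wound edges. It draws on programmes that are well known from the mammary gland: growth factor signals through the kinase ERK, BMP and TGF-beta signals through Smad proteins, and keratins that mark basal cells or are switched on at wounds. Snai1 and its relatives repress epithelial genes and drive the epithelial-mesenchymal transition (EMT), in which cells lose junctions and gain vimentin and fibronectin. In a bulk library, fewer cells of a type and less RNA per cell cannot be told apart.

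Values are TPM (abundance per transcript length and library size, as the authors deposited it), given as libraries 1, 2 and 3 at 0 h and libraries 1, 3 and 4 at 36 h. Changes are log2 fold changes of 36 h minus 0 h, taken after adding 1 to each TPM, with a standard error (SE), a scale that understates the change of low genes. A gene is called where the Benjamini-Hochberg adjusted p of limma is under 0.05 over all 14426 genes. By that rule 247 genes (1.71%) changed, 119 higher at 36 h (0.825%) and 128 lower (0.887%). An unadjusted limma p under 0.05 was reached by 2221 genes (15.4%), in either direction. The 3 libraries of 36 h all lay above the 3 of 0 h for 1377 genes (9.55%) and below them for 1769 (12.3%), and the median change of all genes was -0.01. Among called genes 71 rose and 56 fell by a log2 change of at least 1. The gene lists used below were chosen with earlier results of these data known, so their counts and medians describe the members and are no test. The depth behind each TPM is unknown, so no counting error is given.

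One library of the 36 h group lay between the others for most genes. It is library 4, titled with a leading "mix" that is nowhere spelled out. On the log2 scale library 4 lay between libraries 1 and 3 for 57.0% of the 13990 genes with 3 different values, against 23.7% for library 1 and 19.3% for library 3. In the 0 h group the shares were 41.2%, 35.7% and 23.1%. If library 4 is a pool of the others, the 36 h group holds 2 independent samples and n = 3 overstates its replication. Library 3 at 36 h stood apart by gene length: over the 3606 longest genes (3886 bases or more) its median log2 difference from libraries 1 and 4 was -0.49, and over the 3609 shortest (up to 1355 bases) it was 0.0975. Called genes were fewer among long genes, with 8 higher and 10 lower among those 3606 and 44 and 42 among those 3609. The share of TPM from mitochondrially encoded genes was 1.45% to 3.24% at 0 h and 2.81% to 5.84% at 36 h. The part of these library differences in the results was not tested beyond leaving out libraries or mitochondrial genes and changing the normalization. The 7 epithelial markers summed to 10070 to 10280 TPM at 0 h and 15900 to 18770 TPM at 36 h, mostly Krt14 and Krt5. Of the others Krt18 and Epcam were called lower, Krt8 and Cdh1 were not called, and Cldn7 lay between 1.78 and 5.22 TPM. Of 8 fibroblast, 8 immune and 8 endothelial and adipocyte markers, 3, 6 and 6 were under 1 TPM in all 6 libraries, and Lum, Dpt, Adgre1, Cdh5 and Adipoq were among those at 0. The rest were present. Pdgfra ran from 5.6 to 11.08 TPM, Col1a1 from 3.59 to 10.27, Pecam1 from 2.95 to 6.98, Fabp4 from 3.47 to 8.3 and Cd68 from 3.13 to 14.65. Pdgfrb, Dcn, Col3a1 and Lyz2 reached 1 TPM in at least 1 library.

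**Figure D1:**
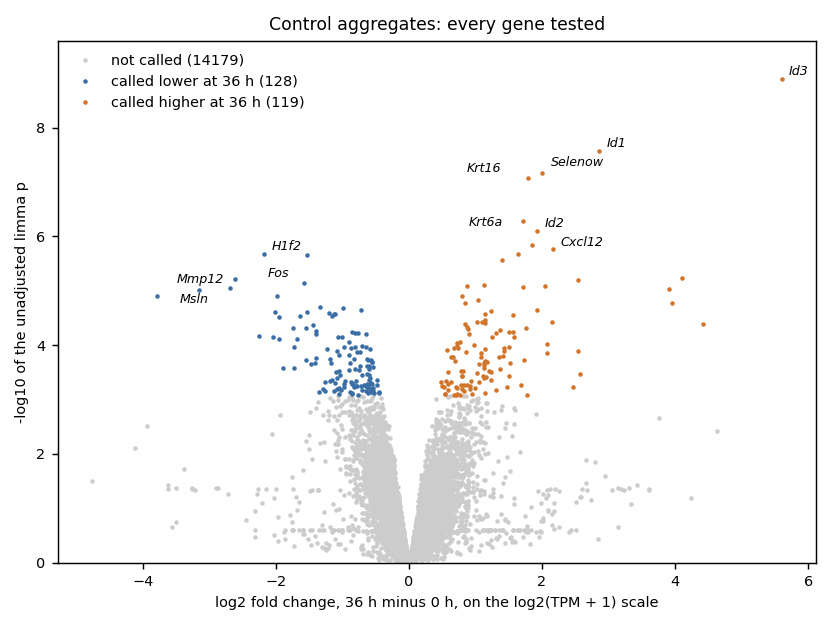
Each point is 1 of the 14426 genes tested, with the log2 fold change of control 36 h minus 0 h on the x axis and the -log10 of the unadjusted limma p on the y axis. Orange points are the 119 genes called higher, blue points the 128 called lower and grey points the rest, and Id3 lies farthest to the upper right.

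The Id genes were among the largest rises. They encode helix-loop-helix proteins without a DNA-binding region, which hold other helix-loop-helix factors inactive and are classic targets of BMP signalling. Id3 stood at 4.91, 5.21 and 4.11 TPM at 0 h and 291, 282 and 261 TPM at 36 h. Id1 stood at 21.8, 25.9 and 24 TPM at 0 h and 182, 179 and 178 TPM at 36 h. Id2 stood at 44.3, 46.2 and 39 TPM at 0 h and 152, 179 and 169 TPM at 36 h. All 3 libraries at 36 h lay above all 3 at 0 h for each of these genes, and within a group the values stayed close together. Id3 changed by 5.61 (SE 0.11, adjusted p = 1.81e-05), Id1 changed by 2.86 (SE 0.09, adjusted p = 1.91e-04) and Id2 changed by 1.92 (SE 0.10, adjusted p = 0.00189). All 3 kept their call in each of the 6 fits without 1 library. Fst (follistatin), a secreted binder of activins and BMPs, was the other member of the TGF-beta and BMP list to rise. Fst stood at 7.42, 5.98 and 9.51 TPM at 0 h and 24.7, 30.4 and 28.6 TPM at 36 h. Fst changed by 1.76 (SE 0.18, adjusted p = 0.0127), and it kept its call in 3 of the 6 fits without 1 library.

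The rest of that list moved less. Of its 25 tested members, 4 were called higher and 0 lower, beside 0.825% and 0.887% of all genes. Of these members 9 lay wholly above and 2 wholly below, beside 9.55% and 12.3% of all genes. The median change was 0.34, against -0.01 over all genes. With 1 library left out, between 3 and 7 members were called higher. Smad1, Pmepa1 and Tgif1, related genes outside the list and chosen after their calls were seen, were called lower. They kept their call in 1, 1 and 2 of the 6 fits without 1 library. The ligands Bmp2 and Bmp4 (under 0.1 TPM in every library) did not pass the filter, and the Bmp7 values were 4.76, 3.71 and 4.01 TPM at 0 h and 7.17, 5.13 and 6.04 TPM at 36 h. That ligand changed by 0.46 and was not called. Smad6, an inhibitory Smad, had 0.57, Bambi, a decoy receptor, had 0.45, and Tgfbi, an extracellular matrix protein induced by TGF-beta, had 1.04. Their 36 h libraries lay above the 0 h libraries, but none of the 3 was called. The receptors Bmpr1a, Bmpr2, Tgfbr1 and Tgfbr2 had 0.34, 0.09, -0.04 and -0.04, and the groups overlapped for each. Inhba, a subunit of activin, lay lower in all 3 libraries at 36 h (-0.42) and was not called.

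The start regions of Id2 and Id3 are shown because these genes rose so steeply, and because Smad proteins, which carry BMP signals, are known to bind GGCGCC and CAGAC. The windows run from 250 bases before to 50 after the start in RefSeq annotation of GRCm38.p6, not the GRCm39 build of the deposited values. Id2 lies at chr12:25096043-25096342 on the minus strand and Id3 at chr4:136143572-136143871 on the plus strand. Capitals mark every match of the 2 motifs on either strand, and matches may overlap.
Id2: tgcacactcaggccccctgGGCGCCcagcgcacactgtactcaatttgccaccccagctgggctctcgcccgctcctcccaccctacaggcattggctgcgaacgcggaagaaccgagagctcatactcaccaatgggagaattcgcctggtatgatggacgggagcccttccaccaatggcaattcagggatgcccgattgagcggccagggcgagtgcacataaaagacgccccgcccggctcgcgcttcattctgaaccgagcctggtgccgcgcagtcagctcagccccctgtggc
Id3: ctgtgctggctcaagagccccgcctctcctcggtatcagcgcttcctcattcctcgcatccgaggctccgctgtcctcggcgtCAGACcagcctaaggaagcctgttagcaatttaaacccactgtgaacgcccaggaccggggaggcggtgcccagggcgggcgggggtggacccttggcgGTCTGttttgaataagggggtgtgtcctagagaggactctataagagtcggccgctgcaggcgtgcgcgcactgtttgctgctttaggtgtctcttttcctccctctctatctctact
The Id2 window holds 1 GGCGCC, starting at position -231 from the start site, and no CAGAC. The Id3 window holds 2 matches of CAGAC, at positions -167 and -68, and no GGCGCC. Among 27025 genes with such a window, 12% hold GGCGCC and 49.7% hold CAGAC. A window was at hand for 2 of the 4 members that rose.

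**Figure D2:**
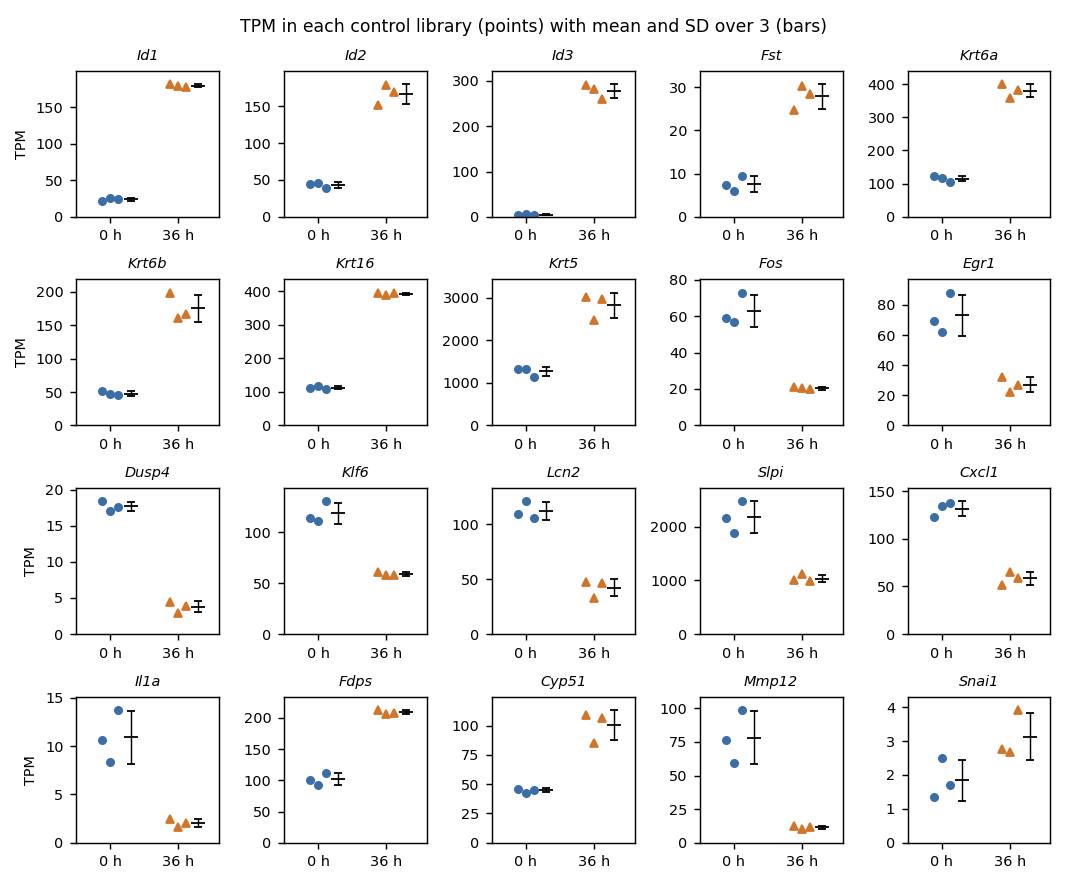
Each panel plots the TPM of a gene in the 3 control libraries at 0 h (blue circles) and the 3 at 36 h (orange triangles), with black bars for the mean and SD over 3 libraries, on axes that start at 0. The Id genes, Fst, the keratins and the sterol enzymes sit higher at 36 h, Fos to Il1a and Mmp12 sit lower, and Snai1, which was not called, sits higher at 36 h at under 4 TPM.

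Several keratins of wounds and of the basal layer rose. Krt6a, Krt6b and Krt16 are stress keratins, which epidermal cells switch on at wound edges. Krt17, of the same kind and more abundant, was not called (0.11, means of 1221 and 1319 TPM). Krt6a stood at 123, 116 and 106 TPM at 0 h and 399.6, 359 and 382 TPM at 36 h. Krt6b stood at 51.3, 46.4 and 45.3 TPM at 0 h and 199, 160.4 and 166 TPM at 36 h. Krt16 stood at 111, 117 and 108 TPM at 0 h and 393, 388 and 395 TPM at 36 h. The groups did not overlap for any of them, and the mean at 36 h was 3.30, 3.67 and 3.49 times that at 0 h. Krt6a changed by 1.71 (SE 0.09, adjusted p = 0.00149), Krt6b changed by 1.85 (SE 0.11, adjusted p = 0.00285) and Krt16 changed by 1.80 (SE 0.07, adjusted p = 2.98e-04), and each kept its call in all 6 fits without 1 library. Krt6a and Krt6b are near-identical copies, so how reads were divided between them is uncertain.

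Keratins of basal mammary cells rose as well, the abundant Krt14 and Krt5 and the much lower Krt15. Krt14 stood at 7233, 7052 and 7216 TPM at 0 h and 14422, 12351 and 13389.6 TPM at 36 h. Krt5 stood at 1337, 1330.2 and 1148 TPM at 0 h and 3011, 2473 and 2979 TPM at 36 h. Krt15 stood at 1.47, 1.43 and 1.06 TPM at 0 h and 8.72, 7.71 and 9.35 TPM at 36 h. Even the lowest 36 h library lay above the highest 0 h library for each. Krt14 changed by 0.90 (SE 0.10, adjusted p = 0.0134), Krt5 changed by 1.15 (SE 0.11, adjusted p = 0.0112) and Krt15 changed by 2.05 (SE 0.16, adjusted p = 0.00609). Krt15 kept its call in all 6 fits without 1 library, Krt5 in 3 and Krt14 in 1. Among all genes 0.825% were called higher and 9.55% lay wholly above. Of the 14 tested basal genes 4 were called higher and 0 lower, 8 lay wholly above, and all 14 had a positive change with a median of 0.50. For Egfr, Itga6, Cdh3 and Col17a1, however, library 3 at 36 h lay below every 0 h library. Acta2, Myh11, Mylk and Lgr5, also on the list, lay under 1 TPM in all 6 libraries and were not tested. Trp63, the transcription factor p63 of basal cells, had 63.7, 63.1 and 60.1 TPM at 0 h and 109.9, 71.6 and 96.4 TPM at 36 h and was not called (0.54, adjusted p = 0.189). Krt17 is on this list too. Without 36 h library 4, 1 basal gene was called, and without 36 h library 3, 6 were.

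Luminal and cornified-layer genes were mixed. Krt18, a luminal keratin, fell. Krt18 stood at 78, 77.1 and 91.6 TPM at 0 h and 45.6, 44.4 and 40.6 TPM at 36 h. Krt18 changed by -0.90 (SE 0.10, adjusted p = 0.0164), and it kept its call in 2 of the 6 fits without 1 library, while its partner Krt8 had -0.11 with overlapping groups. Epcam, an epithelial adhesion protein, fell by a similar amount from 1114, 1098 and 1161 TPM at 0 h and 697, 671 and 669 TPM at 36 h. Epcam changed by -0.73 (SE 0.07, adjusted p = 0.00962), and it kept its call in 3 of the 6 fits without 1 library. Among all genes 0.825% were called higher and 0.887% lower. Of 16 luminal genes 1 was called higher (Ly6a) and 2 lower (Krt18 and Cd14), with a median of 0.01. Of 13 tested stratified squamous genes 5 were called higher and 1 lower, with a median of 0.97, and 3 of the 5 are the stress keratins. Cnfn (cornifelin) and Sprr1b, both of the cornified envelope, rose by 1.73 and 0.73, and Sprr1a, of the same family as Sprr1b, fell by 1.12 on the log2 scale. Krt1, Ivl and Lor, markers of squamous differentiation, had group means under 1 TPM at both times and were not tested. Krt10, also on the list, lay between 30.1 and 44 TPM with overlapping groups and was not called (-0.11).

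None of the 7 tested EMT regulators was called. With 1.71% of all genes called, a list this small may hold none without differing from the rest. Snai1 itself, which was not knocked down here, stood at 1.34, 2.51 and 1.69 TPM at 0 h and 2.77, 2.69 and 3.92 TPM at 36 h. The 36 h libraries lay above the 0 h libraries (means of 1.85 ± 0.601 and 3.13 ± 0.688 TPM, SD, n = 3 each), and the exact permutation test (two-sided) gave p = 0.1, the lowest value possible with 3 libraries in each group. Snai1 changed by 0.54 (SE 0.22, adjusted p = 0.313), so it was not called. Snai2, the most abundant member of the list, had 131, 119.7 and 137 TPM at 0 h and 149.9, 137 and 134 TPM at 36 h, which overlapped (0.12). Twist1 lay lower in all 36 h libraries (-0.22, adjusted p = 0.516) and was not called, and Zeb1 stayed under the filter with means of 0.47 and 0.40 TPM. Of 7 tested EMT factors 1 lay wholly above and 1 wholly below, beside 9.55% and 12.3% of all genes, and the median was 0.06. At an unadjusted p under 0.05 the limma fit had 1 of the 7, Snai1, beside 15.4% of all genes.

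Of 13 tested mesenchymal effectors 2 were called higher (beside 0.825% of all genes) and 0 lower. Of the same 13, 6 lay wholly above (beside 9.55% of all genes), and the median was 0.55. S100a4, a calcium-binding protein of motile cells, and Sparc, a matrix-binding glycoprotein, were the called members. S100a4 stood at 143, 124 and 84.6 TPM at 0 h and 238, 317 and 312 TPM at 36 h. Sparc stood at 456, 442 and 429 TPM at 0 h and 656, 748 and 657 TPM at 36 h. S100a4 changed by 1.32 (SE 0.22, adjusted p = 0.0437) and Sparc changed by 0.63 (SE 0.08, adjusted p = 0.0215), but S100a4 kept its call in 0 and Sparc in 1 of the 6 fits without 1 library. Vim (vimentin) had 37.2, 29 and 24.6 TPM at 0 h and 51.5, 56.6 and 58.5 TPM at 36 h, all higher at 36 h, and missed the threshold (0.87, adjusted p = 0.0629). Fn1 (fibronectin) had 142, 124 and 99.5 TPM at 0 h and 116, 42.6 and 98 TPM at 36 h, with library 3 at 36 h far below the other 5 (-0.61, adjusted p = 0.497). Cdh1 (E-cadherin) had 308, 288 and 292 TPM at 0 h and 374, 162 and 311 TPM at 36 h, and its sign turned on that library: the change was -0.15 with all 6 libraries and 0.206 without library 3 at 36 h, and neither was called. Cdh2 (N-cadherin) had 0.11, and -0.0771 without library 1 at 36 h.

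Genes of several steps of the sterol pathway rose. This pathway turns acetyl-CoA into farnesyl diphosphate, squalene, lanosterol and at last cholesterol, and its genes share control by the SREBP factors. Of 31 tested genes of cholesterol and fatty acid synthesis 9 were called higher and 0 lower, 19 lay wholly above and none wholly below, and the median was 0.49. Among all genes 0.825% were called higher and 9.55% lay wholly above. Fdps makes farnesyl diphosphate, Fdft1 joins 2 of these to squalene, and Cyp51 and Hsd17b7 work on the sterol ring. Fdps stood at 101, 93 and 112 TPM at 0 h and 213, 206 and 208 TPM at 36 h. Cyp51 stood at 46, 42.7 and 45 TPM at 0 h and 109, 85.4 and 107 TPM at 36 h. Hsd17b7 stood at 3.5, 3.84 and 3.95 TPM at 0 h and 10.7, 8.46 and 9.45 TPM at 36 h. Library 3 had the lowest value of the 36 h group for each of the 3 genes but still lay above every 0 h library. Fdps changed by 1.03 (SE 0.09, adjusted p = 0.00776), Cyp51 changed by 1.15 (SE 0.12, adjusted p = 0.0116) and Hsd17b7 changed by 1.14 (SE 0.15, adjusted p = 0.0231), and they kept their call in 4, 2 and 1 of the 6 fits without 1 library. Also called higher were Fdft1 (0.74), Mvk (0.54), Idi1 (1.48), Sqle (0.77), Msmo1 (0.48) and the feedback protein Insig1 (1.23). None of the fatty acid enzymes named here was called: Fasn, Acaca, Scd1, Scd2 and Elovl6 had 0.57, 0.38, -0.16, 0.00 and 0.04, with overlapping groups. Whether they differ from the sterol genes was not tested. The count of called members was 0 without 36 h library 4 and 10 without 36 h library 3.

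The windows of Cyp51 and Hsd17b7 are shown since SREBP factors are known to bind the sterol regulatory element, here searched as TCACNCCAC, together with the factor NF-Y, known to bind the letters ATTGG. Cyp51 lies at chr5:4104648-4104947 and Hsd17b7 at chr1:169969156-169969455, both on the minus strand of GRCm38.p6. Capitals mark matches on either strand, overlaps allowed.
Cyp51: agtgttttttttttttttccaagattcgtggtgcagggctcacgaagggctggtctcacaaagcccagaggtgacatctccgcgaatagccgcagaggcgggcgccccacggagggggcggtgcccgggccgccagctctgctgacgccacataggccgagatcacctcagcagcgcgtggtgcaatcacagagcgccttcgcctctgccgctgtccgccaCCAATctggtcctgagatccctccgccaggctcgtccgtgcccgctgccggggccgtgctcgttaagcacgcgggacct
Hsd17b7: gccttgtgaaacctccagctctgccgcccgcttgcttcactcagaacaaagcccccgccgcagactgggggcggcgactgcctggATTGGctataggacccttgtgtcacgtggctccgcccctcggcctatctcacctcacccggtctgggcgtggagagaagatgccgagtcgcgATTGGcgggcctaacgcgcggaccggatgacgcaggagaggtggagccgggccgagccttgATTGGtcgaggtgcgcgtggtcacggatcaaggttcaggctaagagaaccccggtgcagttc
Cyp51 holds 1 match of the NF-Y motif, at position -29, and Hsd17b7 holds 3, at positions -165, -73 and -12, while TCACNCCAC was found in neither. Other forms of the sterol regulatory element were not searched, so the windows may still hold one. A window was at hand for 6 of the 9 called genes, and all 6 hold ATTGG, as do 13 of 16 members that were not called. Of all 27025 windows 37.9% hold ATTGG and 1.22% hold TCACNCCAC.

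Some ERK target and early response genes fell, 4 of 18 and 7 of 22 tested, beside 0.887% of all genes. Early response genes are switched on within minutes by growth factors or stress and encode short-lived transcription factors and phosphatases. Fos stood at 58.9, 56.9 and 72.9 TPM at 0 h and 20.9, 20.3 and 19.7 TPM at 36 h. Egr1 stood at 69.3, 61.9 and 88.2 TPM at 0 h and 32, 22.4 and 27.1 TPM at 36 h. Dusp4 stood at 18.4, 17.1 and 17.5 TPM at 0 h and 4.43, 2.93 and 3.94 TPM at 36 h. Fos and Egr1 encode transcription factors and Dusp4 a phosphatase that removes the activating phosphates of ERK, and all 3 were low in each 36 h library. Fos changed by -1.58 (SE 0.12, adjusted p = 0.00609), Egr1 changed by -1.40 (SE 0.18, adjusted p = 0.022) and Dusp4 changed by -1.98 (SE 0.17, adjusted p = 0.00693). Fos kept its call in all 6 fits without 1 library, Dusp4 in 3 and Egr1 in 2. Of 18 tested ERK feedback and target genes 0 were called higher and 4 lower (the fourth was Phlda1, -0.72), with a median of -0.42. Other targets were not called: Dusp6 had -0.67, Etv5 -0.69, Spry2 0.04, Myc 0.00 and Ccnd1 -0.04.

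Of 22 tested early response and heat shock genes 0 were called higher and 7 lower, 13 lay wholly below, and the median was -0.55. Among all genes 0.887% were called lower and 12.3% lay wholly below. Ier2 stood at 286, 307 and 356 TPM at 0 h and 157, 139 and 140.5 TPM at 36 h. Klf6 stood at 114, 111 and 131 TPM at 0 h and 61, 58.1 and 57.7 TPM at 36 h. The called members were Fos, Egr1, Ier2, Klf6, Klf2 (-1.55), Dusp1 (-1.11) and Zfp36 (-0.62). Ier2 is a nuclear early response protein, Klf6 and Klf2 are zinc finger transcription factors, Dusp1 dephosphorylates MAP kinases, and Zfp36 destabilizes cytokine mRNAs. Ier2 changed by -1.11 (SE 0.11, adjusted p = 0.00962), and Klf6 changed by -0.996 (SE 0.09, adjusted p = 0.00955). Jun and Egr2 lay wholly lower with -1.12 and -1.12 and were not called. The heat shock genes Hspa1b, Hsp90aa1 and Hspb1 had 0.23, 0.38 and 0.14 with overlapping groups. Fits without 1 library called between 1 and 6 members lower, and 1 was left without 36 h library 4. Fos and Egr1 stand on both of these lists.

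Inflammatory signals and secreted defence proteins made up a further group of falls. Cxcl5 stood at 58.6, 86.9 and 95 TPM at 0 h and 19, 20.9 and 19.1 TPM at 36 h. Cxcl1 stood at 123, 134 and 138 TPM at 0 h and 51.1, 65.3 and 58.8 TPM at 36 h. Il1a stood at 10.6, 8.34 and 13.7 TPM at 0 h and 2.49, 1.64 and 2 TPM at 36 h. Cxcl5 and Cxcl1 attract neutrophils and Il1a is the alarm cytokine interleukin-1 alpha, and every 36 h library lay below every 0 h library. Cxcl5 changed by -1.95 (SE 0.19, adjusted p = 0.00977), Cxcl1 changed by -1.16 (SE 0.11, adjusted p = 0.00977) and Il1a changed by -1.95 (SE 0.22, adjusted p = 0.0146). Il1rn, the antagonist of the same receptor, fell too, from 108, 91.3 and 111 TPM at 0 h and 40.9, 29.6 and 35.5 TPM at 36 h. Il1rn changed by -1.53 (SE 0.14, adjusted p = 0.00962). Among all genes 0.887% were called lower, 12.3% lay wholly below and 9.55% wholly above. Of 27 tested NF-kB, chemokine and interleukin genes 0 were called higher and 6 lower, 15 lay wholly below and 3 wholly above, and the median was -0.39. The other called members were Tnfaip2 (-2.01) and Csf3 (-1.73), which encodes G-CSF. Tnip3, an inhibitor of NF-kB that is not on the list, fell by 1.74 on the log2 scale. Nfkbia, the inhibitor induced by NF-kB itself, had -0.26 and was not called, and Ptgs2, which makes prostaglandins, had 0.86, higher in all 36 h libraries and not called. Without 36 h library 4 none of the 27 was called lower, and without 36 h library 3, 5 were.

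The start region of Cxcl1 is shown because this chemokine is a known NF-kB target. It lies at chr5:90890995-90891294 on the plus strand of GRCm38.p6, and capitals mark the kappaB motif, searched on both strands.
Cxcl1: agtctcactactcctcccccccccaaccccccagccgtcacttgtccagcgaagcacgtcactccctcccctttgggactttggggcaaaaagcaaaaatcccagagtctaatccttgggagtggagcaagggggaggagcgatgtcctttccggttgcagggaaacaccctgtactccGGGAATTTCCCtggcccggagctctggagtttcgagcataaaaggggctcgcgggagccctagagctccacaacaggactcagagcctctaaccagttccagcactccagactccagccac
The window holds 2 overlapping matches, starting at positions -71 and -70. Of the 27025 windows 8.18% hold the motif, and of the members of the list with a window 2 of 4 called genes and 8 of 13 genes that were not called hold it.

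Of 18 tested acute phase and antimicrobial genes 0 were called higher and 8 lower, and 11 lay wholly below. Among all genes 0.887% were called lower and 12.3% lay wholly below. The median of the 18 was -0.87, the lowest of the 37 gene lists, which were chosen with earlier results of these data known. Slpi stood at 2166, 1885 and 2471 TPM at 0 h and 1008, 1111 and 978 TPM at 36 h. Wfdc18 stood at 1040, 1268 and 1567 TPM at 0 h and 541, 560 and 525 TPM at 36 h. Lcn2 stood at 109, 121 and 105 TPM at 0 h and 46.9, 33.2 and 46.6 TPM at 36 h. Slpi is a secreted inhibitor of elastase, Wfdc18 belongs to the same WAP-domain family, and Lcn2 (lipocalin 2) binds iron carriers of bacteria. Slpi changed by -1.07 (SE 0.12, adjusted p = 0.014), Wfdc18 changed by -1.23 (SE 0.15, adjusted p = 0.0181) and Lcn2 changed by -1.40 (SE 0.15, adjusted p = 0.0134). The other called members were Nos2 (-1.19), Ltf (-1.89), Lbp (-0.86), Cp (-0.84) and S100a8 (-0.98). Ltf (lactoferrin) was listed at 0 in 2 of the 36 h libraries, and Nos2 lay under 2 TPM in all 6 libraries. Chi3l1 had 201, 193 and 278 TPM at 0 h and 129.8, 114 and 110 TPM at 36 h and lay wholly lower but just missed the threshold (adjusted p = 0.0503), and Orm1, Orm2 and Hp had -0.01, -0.06 and 0.03. Fits without 1 library called between 0 and 4 members, 0 of them without 36 h library 4.

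**Figure D3:**
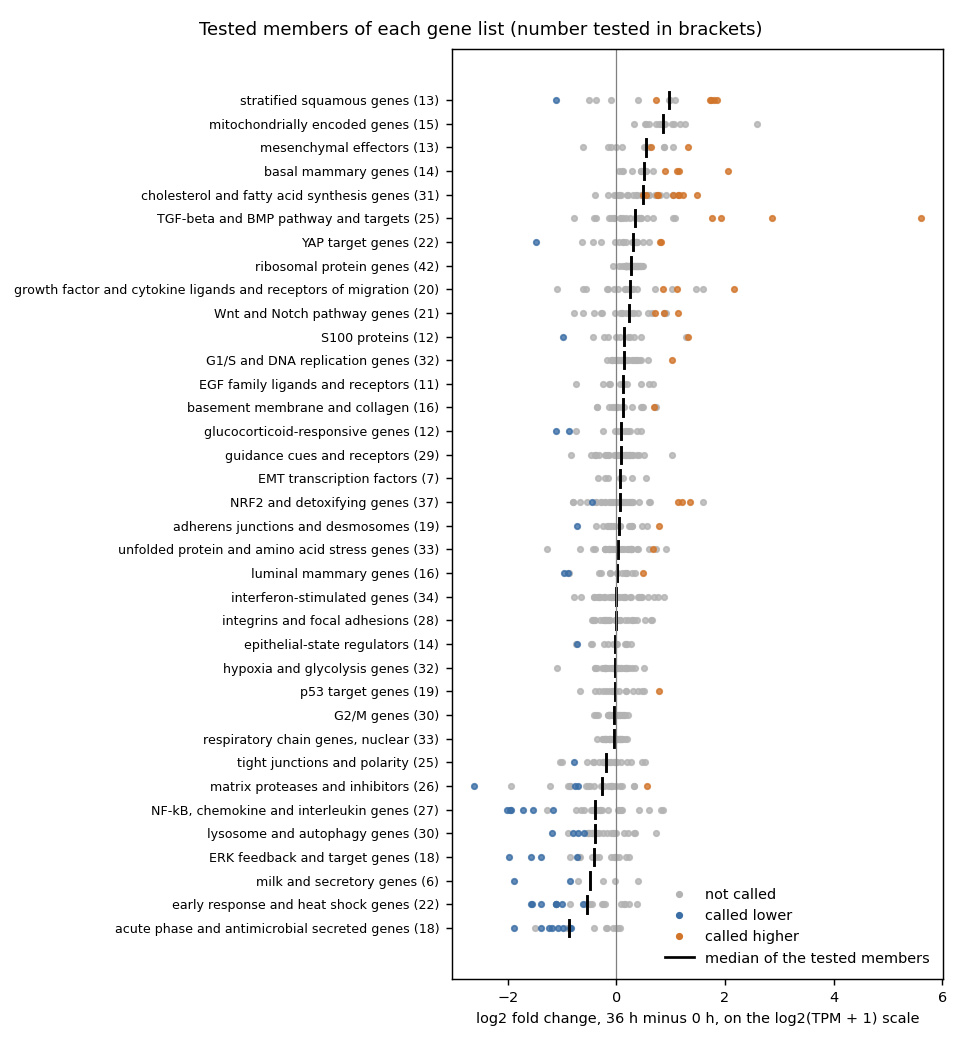
Each row is 1 of 36 of the 37 gene lists (1 is not shown), ordered by its median, with 1 point for each tested member at its log2 fold change of control 36 h minus 0 h (grey not called, orange called higher, blue called lower) and a black bar at the median. Acute phase genes lie lowest with a median of -0.87, stratified squamous genes highest with 0.97, and most lists spread around 0. The lists were chosen with earlier results of these data known.

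The called protease and lysosome genes were mostly lower. Over all genes 1.71% were called and 12.3% lay wholly below. Mmp12 (macrophage elastase, a matrix metalloprotease) had the largest fall of its list. Mmp12 stood at 76.3, 59.4 and 98.9 TPM at 0 h and 12.7, 10.4 and 11.8 TPM at 36 h. Mmp12 changed by -2.62 (SE 0.20, adjusted p = 0.00607), and it kept its call in all 6 fits without 1 library. Mmp12 and Ctsl were the proteases called. Of 26 tested proteases and inhibitors 1 was called higher (Serpinb5, the serpin maspin, 0.56) and 3 lower, with 12 wholly below and a median of -0.26. The other 2 were the inhibitor Timp1 (-0.77) and the cathepsin Ctsl (-0.70). Of 30 tested lysosome and autophagy genes 0 were called higher and 4 lower, 18 lay wholly below, and the median was -0.39. Among the called members, Ctsh and Ctsl are lysosomal cathepsins and Gpnmb is a lysosomal glycoprotein, and they had -0.81, -0.70 and -1.19. Timp1, Ctsl and Ctsh each kept their call in 2 of the 6 fits without 1 library, and Gpnmb in 0. Cd68, a lysosomal protein that also marks macrophages, fell from 14.7, 9.81 and 14.1 TPM at 0 h and 3.13, 3.16 and 3.55 TPM at 36 h. Cd68 changed by -1.68 (SE 0.19, adjusted p = 0.0146), and it kept its call in 2 of the 6 fits without 1 library. Beside it, Adgre1 was at 0 in all 6 libraries, and 6 of the 8 immune markers were under 1 TPM throughout. The summed immune marker level was 10.7 to 16.1 TPM at 0 h and 3.76 to 4.68 TPM at 36 h, and most of that sum is Cd68 itself. Lyz2, the only other immune marker tested, had -0.18 with overlapping groups.

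**Figure D4:**
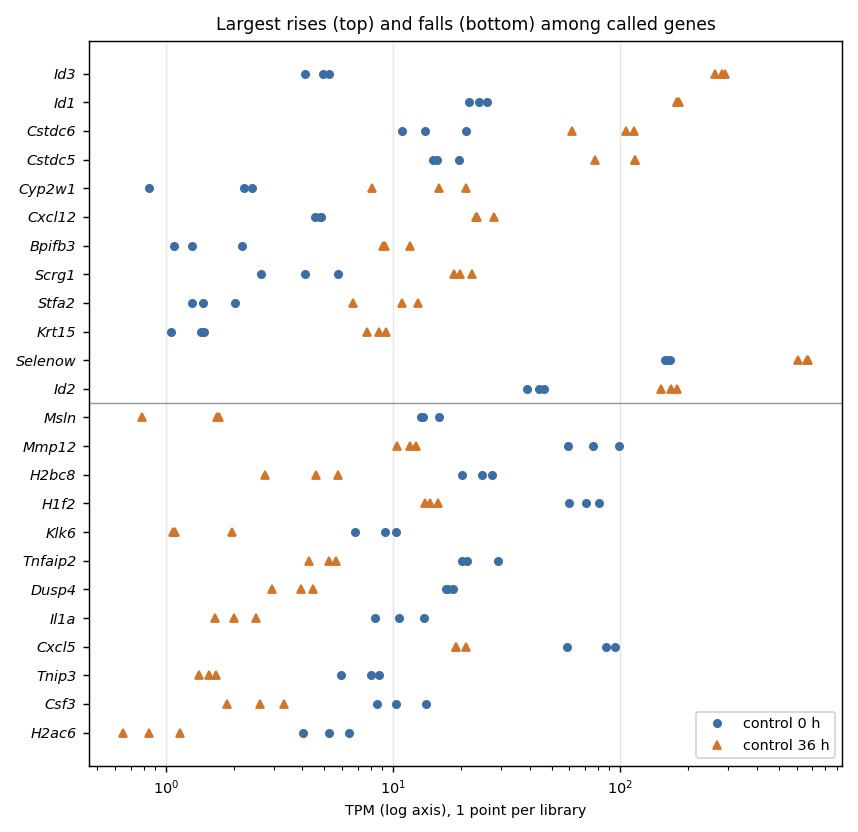
Each row is a gene, with 1 point per control library at its TPM on a log axis (blue circles 0 h, orange triangles 36 h). The upper block holds the 12 largest rises, led by Id3, and the lower block the 12 largest falls, led by Msln. Rows were chosen among called genes that reach a mean of 5 TPM or more at one of the times and whose groups do not overlap.

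Several of the largest changes belong to no list. Msln (mesothelin), a cell surface protein of epithelial and mesothelial cells, fell the most of the genes named by rule. Msln stood at 15.9, 13.3 and 13.5 TPM at 0 h and 1.69, 0.79 and 1.71 TPM at 36 h. Msln changed by -2.69 (SE 0.21, adjusted p = 0.00616). H1f2, H2bc8 and H2ac6, which encode histones, fell by 2.17, 2.25 and 1.72 on the log2 scale. Histone genes of a cluster are near-copies, so their single levels are uncertain. Klk6, a secreted kallikrein protease, fell by 2.04. Selenow, a small selenium-containing protein, rose from 159, 166 and 158 TPM at 0 h and 609, 675 and 668 TPM at 36 h. Selenow changed by 2.01 (SE 0.07, adjusted p = 2.98e-04), and it kept its call in all 6 fits without 1 library. Cstdc5, Cstdc6 and Stfa2 belong to the stefin family of cysteine protease inhibitors and rose by 2.54, 2.55 and 2.08, but reads of these near-copies may be split between them. Cyp2w1, Scrg1 and Bpifb3 rose by 2.47, 2.08 and 2.15 from under 6 TPM. Of these genes Msln, H1f2 and Cstdc5 also kept their call in all 6 such fits, Bpifb3 in 3, H2bc8, H2ac6, Klk6 and Scrg1 in 2, and Cstdc6, Stfa2 and Cyp2w1 in 1. Sostdc1, a secreted BMP and Wnt antagonist, falls outside the rule for named genes and was chosen after its values were seen: it had 99.7, 93.7 and 111 TPM at 0 h and 355, 302 and 301 TPM at 36 h. Sostdc1 changed by 1.64 (SE 0.10, adjusted p = 0.00285).

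Secreted growth factors and their binding proteins included 3 called rises among 20 tested genes of migration ligands and receptors, with 0 called lower and a median of 0.25. Among all genes 0.825% were called higher and 0.887% lower, beside which the counts of called genes in this paragraph stand. Cxcl12 is a chemokine that guides cells through Cxcr4. Cxcl12 stood at 4.84, 4.56 and 4.76 TPM at 0 h and 27.9, 23.2 and 23.6 TPM at 36 h. Cxcl12 changed by 2.17 (SE 0.13, adjusted p = 0.00285), and it kept its call in all 6 fits without 1 library. Igfbp3 stood at 443, 432 and 471 TPM at 0 h and 1052, 893 and 1001 TPM at 36 h. This protein binds insulin-like growth factors. Igfbp3 changed by 1.12 (SE 0.09, adjusted p = 0.00609). Fgfbp1, which releases FGFs from the matrix, rose by 0.87. Of 11 EGF family ligands and receptors none was called (3 had an unadjusted limma p under 0.05, beside 15.4% of all genes). Egfr had 13.8, 13.7 and 13.2 TPM at 0 h and 25.7, 10.7 and 24.8 TPM at 36 h, with library 3 below the 0 h group and the other 2 above it. Of 21 Wnt and Notch genes 3 were called higher and 0 lower: the receptor Lgr6 (1.13) and the Notch targets Nrarp (0.87) and Hey1 (0.71). Of 22 YAP target genes 2 were called higher (Gadd45b and Ccn1, 0.82 and 0.80) and 1 lower, Nt5e, an ectonucleotidase (-1.47). Of 37 NRF2 and detoxifying genes 3 rose (Nqo1, Aldh1a1 and Ces1g, 1.14, 1.36 and 1.20) and 1 fell (Gsta4, -0.45). Of 12 glucocorticoid-responsive genes 2 fell, Dusp1, also on the early response list, and Hsd11b1, an enzyme that activates glucocorticoids (-0.88). The median of the 12 was 0.08. Among those not called, Tsc22d3, Fkbp5, Per1 and Sgk1 had 0.22, 0.24, 0.45 and 0.02, and Klf9 and Errfi1 had -0.25 and -0.75. Most calls of this paragraph were lost in most fits without 1 library. Nqo1 and Igfbp3 kept theirs in 4 of the 6, Fgfbp1 in 3, Nt5e in 2, Lgr6, Hey1, Ccn1, Aldh1a1, Ces1g and Dusp1 in 1, and Nrarp, Gadd45b, Gsta4 and Hsd11b1 in 0.

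Few adhesion and cell cycle genes were called. Over all genes 1.71% were called, and 15.4% had an unadjusted limma p under 0.05. The counts before adjustment given here stand beside that 15.4%. Of 28 integrin and focal adhesion genes none was called by limma (median -0.02), and 0 higher and 1 lower had an unadjusted p under 0.05. None of 29 guidance genes was called (median 0.08, 1 higher and 3 lower before adjustment). Of the smaller lists, 14 epithelial-state regulators had Epcam called lower, 6 milk and secretory genes had the water channel Aqp5 (-0.85) and Ltf called lower, and 12 S100 proteins had S100a4 called higher and S100a8 lower. Of 33 genes of the unfolded protein and amino acid responses Psat1, an enzyme of serine synthesis, rose (0.67), and of 19 p53 targets Perp did. Of 19 adherens junction and desmosome genes Perp, a desmosomal protein, rose (0.79) and Epcam fell. Of 25 tight junction and polarity genes Cldn3, a claudin, fell (-0.77), and 7 lay wholly below, beside 12.3% of all genes. Col7a1, of the anchoring fibrils, was the only called gene (0.70) of 16 basement membrane and collagen genes. In the cell cycle, Ccne2 (cyclin E2, of the entry into S phase) was the only called gene among 32 G1/S and DNA replication genes, with 19.7, 13.7 and 17 TPM at 0 h and 34.9, 33.8 and 35.6 TPM at 36 h. Ccne2 changed by 1.02 (SE 0.15, adjusted p = 0.0303), but it kept its call in 0 of the 6 fits without 1 library. Of 30 G2/M genes none was called, their median was -0.05, and 0 higher and 2 lower had an unadjusted p under 0.05. None of 34 interferon-stimulated genes was called (median -0.01, 1 higher and 5 lower before adjustment), nor of 32 hypoxia and glycolysis genes (-0.03, 4 and 5). The same held for 33 nuclear respiratory chain genes (-0.05, 0 and 4) and 42 ribosomal protein genes (0.26, 9 and 0). All 15 mitochondrially encoded genes had positive changes with a median of 0.87 and none was called (2 higher before adjustment). For mt-Nd3 the values were 414, 654 and 145 TPM at 0 h and 745, 879 and 846 TPM at 36 h, so the 0 h libraries differed among themselves by several-fold.

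The same change was measured in the Snail1 knockdown aggregates, with 3 libraries at each time. No gene of 14426 was called for a difference between the 2 changes in limma's interaction test (smallest adjusted p = 0.127), and 766 genes (5.31%) were under 0.05 before adjustment. Id3 rose by 5.61 in control and by 5.69 in knockdown, Id1 by 2.86 and 3.61, and Id2 by 1.92 and 3.49. Krt6a had 1.71 and 3.44, Krt16 1.80 and 3.83, and Fst 1.76 and 1.76. Fos had -1.58 in control and 0.05 in knockdown, where its mean was 11.6 TPM at 0 h and 11.9 TPM at 36 h (interaction adjusted p = 0.595). Mmp12 had -2.62 and -0.56 (0.595). Without knockdown 0 h library 2, 11 genes were called for a difference, among them Id2 (1.53 higher in the knockdown change, adjusted p = 0.00705), Krt16 (1.57, 0.0104), Krt6a (1.64, 0.0243) and Fgfbp1 (1.57, 0.00501). That library had 14% of its TPM in mitochondrially encoded genes, and the remaining 11 libraries had 1.45% to 6.15%. A single gene was called without control 0 h library 2, control 36 h library 3, control 36 h library 4 or knockdown 36 h library 3, a different predicted gene each time.

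The number of called genes depended on single libraries. It was 32, 44 and 66 without 0 h libraries 1, 2 and 3, and 116, 230 and 30 without 36 h libraries 1, 3 and 4. Of the 247 called genes 19 kept their call in all 6 of these fits: Id1, Id2, Id3, Krt6a, Krt6b, Krt15, Krt16, Cxcl12, Selenow, Sostdc1, Cstdc5, Fbp2, Fos, Mmp12, Msln, H1f2, Plet1, Gm35113 and Snora15. No fit without 1 library called 66 of the 247. The groups of all 247 did not overlap in the 6 libraries.

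**Figure D5:**
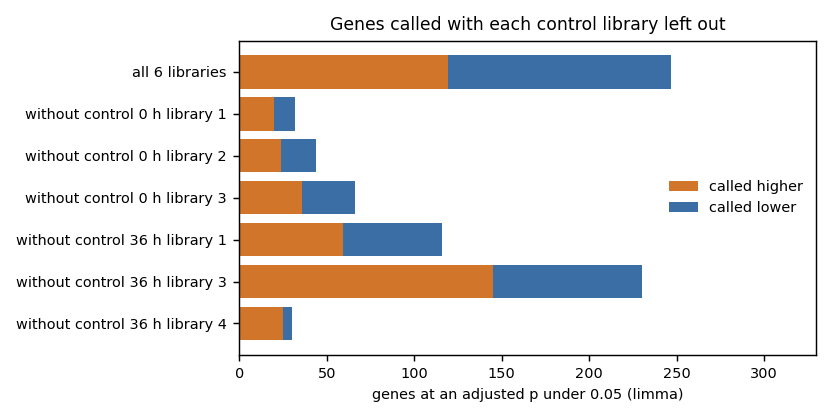
Bars give the number of genes at an adjusted p under 0.05 (limma), split into higher (orange) and lower (blue) at 36 h, with all 6 control libraries and with each left out in turn. The count is 247 with all 6 and falls to 30 without control 36 h library 4.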

How the data were processed

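The deposited table holds TPM for 57180 genes in 12 libraries, on a scale where the authors gave every library the same total, per the labels' protocols from stranded mRNA libraries. HISAT2 2.2.1, HTSeq, cutadapt 1.9.1, DESeq2, FastQC and the build GRCm39 are listed in the submitters' processing notes without roles, so which program made the TPM is not given in the sources used here. The authors also deposited a gene length, used here only to describe genes, and group means, which were not used: their control 36 h mean covers libraries 1 and 3 only.

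Groups came from the sample titles. The 6 control libraries were fitted with limma 3.58.1 (R 4.3.3) on log2(TPM + 1) with a variance trend, 1 mean per group, two-sided, and Benjamini-Hochberg adjustment over 14426 genes. The difference from the knockdown change was an interaction contrast over all 12 libraries. The fit was tested on simulated data. The replicate numbers 1 and 3 occur in both groups, but no label says that they pair libraries.

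Genes were named by rule: Snai1, the 12 largest rises and falls (called, a mean of at least 5 TPM in 1 group, no overlap, no predicted genes, at least 300 bases), up to 4 called members of each of 41 lists (37 pathway and 4 cell type marker lists) and 10 lineage markers. Genes given with values outside that rule serve to describe a list. Members and lists were chosen with earlier results of these data known. A few items are not reported here. Promoter windows are RefSeq's on GRCm38.p6.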

Additional observations from a re-analysis of the deposited data

How the results depend on the processing

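The count of 247 called genes (119 higher, 128 lower) was between 185 and 327 under 8 alternatives: a pseudocount of 0.1, a filter of 5 TPM or over the 6 control libraries, quantile normalization, median-of-ratios scaling, mitochondrial genes left out, no variance trend and a robust variance. Without a variance trend 81 genes were lower. Without a filter 131 genes were called, 49 of them lower, with 35924 genes tested. A minimum fold change of 2 left 4 genes, 4 higher and 0 lower. Fitting all 12 libraries gave 52, 36 and 16. Leaving out 1 library gave 30 to 230 genes, 20 to 145 higher and 5 to 85 lower. A library left alone with 1 other in its group was assumed to vary like the rest.

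The replicate block, with 1 residual degree of freedom, gave 0 genes, 0 higher and 0 lower in limma (smallest adjusted p = 0.0557, 738 genes at an unadjusted p under 0.05). The deviations of libraries with the same number had correlations of -0.0773 (number 1) and -0.0642 (number 3) across genes. Those of libraries with different numbers had -0.0661 to 0.134. So few pairs, with deviations taken from means of 3 libraries, cannot decide whether the numbers pair the libraries.

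Of the 81 called genes named by rule, none changed direction under any alternative, 73 kept their call with median-of-ratios scaling and 14 without control 36 h library 4. Cdh1 ranged from -0.395 to 0.206 and Cdh2 from -0.0771 to 0.392 with 1 library left out, and neither was called. The medians of 23 of 41 lists kept their sign under all alternatives, and those of the other 18 lists, which lay between -0.184 and 0.12, did not. Snai1 was not called under any alternative. For the difference from the knockdown change, 1 gene was called with no filter, median-of-ratios scaling, quantile normalization or the replicate block, and 0 to 11 without 1 library. TPM carry no depth, so what depth limits cannot be given.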
